A study of Arabidopsis thaliana with 144 samples.

Results

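The genes described here are the Arabidopsis transcripts that were higher with a bacterial synthetic community (SynCom) than without bacteria in wild-type Col-0 seedlings at both final phosphate (Pi) levels and in both experiments of the study. They were chosen on log2(CPM + 1), where CPM is a gene's count scaled to a library total of 1000000. A gene had to average at least 5 CPM over the Col-0 SynCom libraries and to be at least 0.4 log2 units higher with SynCom in each of 4 conditions, namely low Pi in experiment A, low Pi in experiment B, high Pi in experiment A and high Pi in experiment B. This left 111 genes of the 15277 above the CPM minimum and of the 27206 listed, so the limit of 200 genes was not reached. Because the Col-0 libraries chose the genes, their Col-0 values are a description, and tests were made only in the phf1 and phr1 phl1 libraries, which took no part in the choice.

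Most of the leading genes encode proteins of the root hair cell wall. Root hairs are tubular outgrowths of single epidermal cells through which a root takes up Pi and other nutrients, and a root short of Pi makes them longer and denser. Their walls are built from extensins and other hydroxyproline-rich proteins, which peroxidases cross-link, and are loosened by expansins and by xyloglucan endotransglucosylase/hydrolases (XTHs). A family of basic helix-loop-helix factors around RHD6 and RSL4 starts hair formation and drives hair growth.

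Whole seedlings were sequenced as non-stranded poly(A) libraries. The genotypes were phr1 phl1, with mutations in PHR1 and PHL1, transcription factors that drive the Pi starvation response, phf1, whose mutated gene acts in moving PHT1 Pi transporters to the plasma membrane, and the wild type Col-0. Seedlings first grew for 7 days with sucrose, on a −P medium of 5 µM Pi, a +P medium of 1 mM Pi, or a +Phi medium in which 1 mM phosphite, which plants take up in place of Pi but cannot metabolize, was given. They then spent 12 days without sucrose at 50 µM Pi, here low Pi, or 625 µM Pi, here high Pi, with SynCom added at inoculation (SynCom) or without bacteria (noBact). Each of the 36 groups had 4 libraries, 2 from experiment A and 2 from experiment B, so a genotype had 12 SynCom and 12 noBact libraries at each Pi level. Shoots and roots were not separated, and in such bulk samples fewer cells of a type and less RNA per cell cannot be told apart.

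The libraries held 720256 to 10668475 counts, with a median of 4104382, so 1 count was worth 0.244 CPM in a library of median size. PHR1 stood at 11.3 to 39.8 CPM in libraries labelled phr1 phl1, at 39.2 to 86.5 CPM in phf1 and at 51.6 to 86 CPM in Col-0, while PHL1 was higher in phr1 phl1, at 15.1 to 181 CPM, than in phf1, at 8.6 to 20.2 CPM, or Col-0, at 8.72 to 22.3 CPM. PHF1 overlapped between all 3 genotypes and did not check the phf1 labels. These ranges leave out 6 libraries in doubt. In 4 of them PHR1 or PHL1 went against the label, one labelled phr1 phl1 had the lowest total, and a Col-0 noBact library came from a pair, B1 and B2 after +P at high Pi, with a residual SD of 0.615 log2 units, and a mean level of the 111 genes of −1.80 in B1, the one left out, and −0.751 in B2. For the 18 comparisons tested, the count of called members among all 111 is also given without these 6 libraries where that changed it by more than 1.5 times.

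By RefSeq description, 17 of the 111 genes were extensins or other proline-rich proteins, which is 15.3%, against 0.734% of the 15268 annotated genes above the CPM minimum. Xyloglucan enzymes made up 5 of the 111 (4.5%, against 0.17%), peroxidases 6 (5.41%, against 0.445%), expansins 2 (1.8%, against 0.124%) and pectin enzymes 3 (2.7%, against 0.445%). Of 19 gene lists, root hair growth genes gave 13 members among its 20 genes above the CPM minimum, root extensins gave 9 among 11, and glucosinolate synthesis gave 1 among 19, IMS2. The other 16 lists gave none, among them Pi starvation, salicylic acid, jasmonate, pattern-triggered immunity, Casparian strip, suberin and photosynthesis. Each of these 16 held only 2 to 23 genes above the CPM minimum, and 0.727% of all such genes were members. A count of 0 in any of them is thus close to that share and does not set it apart. None of the 352 genes of the ribosome or its assembly, 2.31% of the annotated genes above the CPM minimum, was a member. At the share of 0.727% over all genes few would be. In the genome, 10 members formed 5 neighbouring pairs within 10 kb of each other, such as AT3G54580 with HRGP1 at chr3:20200573-20208783 and AT5G06630 with EXT10 at chr5:2036312-2041928 (RefSeq TAIR10.1). Extensins carry long repeats that are alike between family members, so reads may have been divided among them, and single extensin values are uncertain to that extent.

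The root hair element (RHE), a promoter element known from Arabidopsis root hair genes, was present near the start of 12 of the 111 genes. It was searched on both strands from 250 bases before to 50 bases after each annotated gene start, and it stood in 10.8% of the members, 0.865% of the 15267 windows of genes above the CPM minimum and 0.876% of all 26718 windows. The element was defined on promoters of expansin genes, EXPA7 and EXPA18 among them, and the genes that RefSeq describes as root hair specific, here RHS13, RHS18 and PERK13, were named after a search for it, so the matches are no independent evidence. The 13 matches are shown because, of the motifs searched, the share of members with RHE had the highest ratio to that of other genes. Each is read on its own strand, 5′ to 3′, with the core CACG in capitals.
PRP1: atagtgttatgCACGat
PRP3: taagtgtaatgCACGat
RHS18: tccatgaacgCACGtt
LRX1: aacttggacgCACGtt
RHS13: ataatgcgactCACGtc
EXPA18: aacatgaacgCACGtc
EXPA18: atagtgtttctCACGtt
PPa3: tctttgcctgCACGtt
MRH6: ttcatggcaagCACGtt
EXPA7: atagtgatccgCACGta
PERK13: ttattggaggCACGtc
MES15: ttcttgagactCACGaa
AT1G51850: aatatgttttCACGat

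The core and the TG pair shortly before it are part of the pattern searched for, so every match has them. The pattern also limits the bases beside the core, and every match has g or t just before it and a or t just after it. Whether the remaining bases are alike beyond what the pattern sets was not tested. Of the 12 genes with a match, 5 ranked 1 to 37 by mean Col-0 effect, 6 ranked 38 to 74 and 1 ranked 75 to 111. None of the matches overlapped a G-box (CACGTG). The upstream windows of 4 root hair wall genes follow, each the 250 bases before the annotated start on the plus strand of RefSeq TAIR10.1, with the RHE in capitals. They lie at chr1:20504651-20504900 for PRP1, chr3:23182472-23182721 for PRP3, chr1:4069742-4069991 for LRX1 and chr1:4276255-4276504 for EXPA7.
PRP1: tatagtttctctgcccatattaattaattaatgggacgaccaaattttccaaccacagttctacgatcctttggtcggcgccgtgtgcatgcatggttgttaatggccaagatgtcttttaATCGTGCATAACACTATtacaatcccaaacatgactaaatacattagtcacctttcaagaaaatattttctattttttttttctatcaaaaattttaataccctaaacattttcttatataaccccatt
PRP3: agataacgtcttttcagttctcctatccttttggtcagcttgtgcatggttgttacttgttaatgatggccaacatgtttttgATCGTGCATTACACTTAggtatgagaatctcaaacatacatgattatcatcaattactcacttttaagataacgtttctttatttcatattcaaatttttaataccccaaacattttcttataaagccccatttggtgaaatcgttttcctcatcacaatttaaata
LRX1: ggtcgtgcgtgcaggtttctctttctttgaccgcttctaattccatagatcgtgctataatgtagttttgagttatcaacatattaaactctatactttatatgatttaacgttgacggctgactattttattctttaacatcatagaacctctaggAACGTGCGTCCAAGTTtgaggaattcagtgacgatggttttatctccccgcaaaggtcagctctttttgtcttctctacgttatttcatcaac
EXPA7: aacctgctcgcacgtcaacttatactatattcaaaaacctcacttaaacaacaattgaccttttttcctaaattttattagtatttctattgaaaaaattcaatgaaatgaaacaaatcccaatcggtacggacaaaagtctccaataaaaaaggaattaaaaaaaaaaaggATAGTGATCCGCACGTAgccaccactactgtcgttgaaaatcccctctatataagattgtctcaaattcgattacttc

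In PRP1, PRP3 and LRX1 the element reads on the minus strand, so the capitals show its reverse complement, and in EXPA7 it reads on the plus strand. Other motifs were searched on both strands in the same windows, and in percentage points the TATA box and site II shares lay further from those of other genes than the RHE share did. The W-box core TTGAC, bound by WRKY factors, stood in 57.7% of members and 51.3% of genes above the CPM minimum. The P1BS site bound by PHR1 stood in 4.5% and 6.45%, the G-box in 6.31% and 8.99%, and the TATA box TATAAA in 64.9% and 51.5%. The site II motif TGGGCC, common before ribosomal protein genes, stood in 5.41% of members and 20% of genes above the CPM minimum.

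In Col-0, which chose the genes, the median response of the 111 genes was 1.89 log2 units at low Pi in experiment A, 1.21 at low Pi in B, 1.53 at high Pi in A and 0.93 at high Pi in B. Taken alone, these conditions were passed by 14.1%, 26.1%, 10.4% and 15.5% of the genes above the CPM minimum, and all 4 together by 0.727%. The mean effect over the 4 conditions ran from 0.481 for MEB1 to 2.89 for EXT6, with a median of 1.35. The 12 genes with the largest mean effect included the extensins EXT6, EXT10, AT5G06630, EXT13 and EXT12 and the proline-rich wall proteins PRP1 and PRP3. The others were XTH26, the fasciclin-like arabinogalactan protein FLA6, AT5G04960, the secreted CAP protein AT4G25790 and the sulfotransferase ST4B. RefSeq describes AT5G04960 only by a superfamily, plant invertase/pectin methylesterase inhibitor, and it was counted above among the pectin enzymes. Just inside the minimum, the lowest of the 4 effects was 0.408 for AT4G01700, 0.409 for AT5G40590 and 0.411 for MES15, and just outside it was 0.399 for RAP2.11, 0.396 for AT3G51340 and 0.396 for CIPK13.

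**Figure D1:**
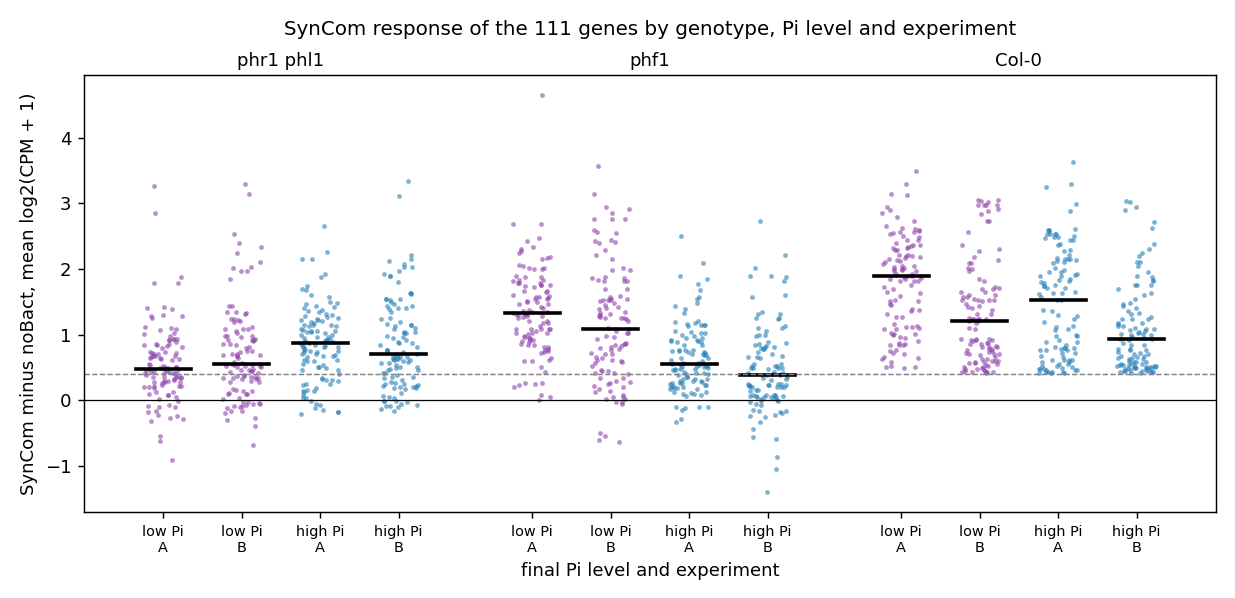
SynCom response of each of the 111 genes (points) as mean log2(CPM + 1) of SynCom minus noBact libraries, by genotype, final Pi level and experiment; black bars are medians and the dashed line is the minimum of 0.4 used to choose the genes in Col-0. In phr1 phl1 the medians were 0.479 and 0.555 at low Pi and 0.865 and 0.701 at high Pi, in phf1 they were 1.33 and 1.08 at low Pi and 0.554 and 0.384 at high Pi, and the Col-0 points lie above 0.4 because they were chosen so.

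The response was also measured in the mutants. The plot of responses by genotype shows that the points of both mutants lie mostly above 0 in every condition, with some members below it. When the same 4 minima were applied inside each mutant, 43 of the 111 genes passed in phr1 phl1 (38.7%, against 0.831% of the 15277 genes above the CPM minimum) and 37 in phf1 (33.3%, against 0.406%). FLA6, XTH26, PRP3, ST4B, RHS18 and RHS13 were among those that passed in both mutants.

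Tests used edgeR's quasi-likelihood model on counts of 19321 genes, all 111 members among them, with Benjamini-Hochberg adjustment over all of them, and a gene was called at an adjusted p under 0.05. In phr1 phl1 at low Pi, 40 of the 111 genes rose with SynCom, against 2.68% of all genes tested, and at high Pi 68 rose, against 3.3%. In phf1 at low Pi, 96 rose, against 9.01% of all genes, and at high Pi 39 rose, against 2.43%. No member fell in any of these 4 comparisons, where 1.58%, 0.895%, 8.49% and 1.88% of all genes fell. The median log2 fold change of the members was 0.798 and 1.03 in phr1 phl1 at low and high Pi and 1.26 and 0.632 in phf1, and that of all genes tested was between 0.00264 and 0.0147. Above 0 stood 107 and 109 members in phr1 phl1 and 111 and 104 in phf1, where 50.6 to 52.7% of all genes did.

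Within experiments A and B the medians were 0.723 and 0.691 in phr1 phl1 at low Pi, 1.2 and 0.885 in phr1 phl1 at high Pi, 1.44 and 0.972 in phf1 at low Pi and 0.714 and 0.528 in phf1 at high Pi. A fit on the libraries of experiment A alone called 23 members in phf1 at high Pi, fewer than the 39 of both experiments by more than 1.5 times. The fit of all libraries with separate means for each experiment, which gave these medians, called 36 as higher in A and 34 in B there. Leaving out the libraries numbered A1, A2, B1 or B2 throughout the study left 24 to 26 members called in phf1 at high Pi, and leaving out B1 left 21 in phr1 phl1 at low Pi. Over the 4 comparisons, 23 members rose in all 4 (20.7%, against 0.295% of all genes tested), 17 in 3 (15.3%, against 0.404%), 34 in 2 (30.6%, against 2.11%) and 32 in 1 (28.8%, against 10.8%). Of these 32, 30 rose in phf1 at low Pi alone.

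**Figure D2:**
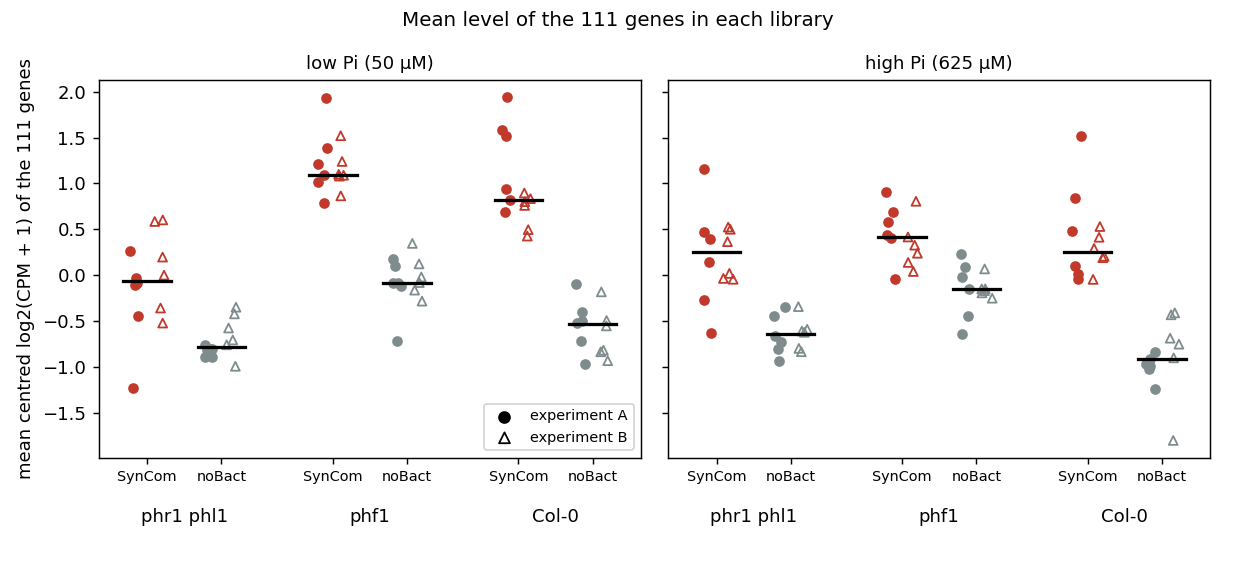
Mean level of the 111 genes in each library, as the mean over genes of log2(CPM + 1) minus the gene's own mean over all libraries, by genotype and treatment at low and high Pi; filled circles are experiment A, open triangles experiment B and black bars medians of 12 libraries. In phf1 at low Pi the SynCom libraries lie between 0.789 and 1.93 and the noBact libraries between −0.711 and 0.347.

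The plot of mean levels by library shows the same genes on 1 scale. In phr1 phl1 the median library stood at −0.058 with SynCom and −0.781 without bacteria at low Pi, and at 0.255 and −0.641 at high Pi. These libraries overlapped, since the lowest phr1 phl1 SynCom library, from the +P group at low Pi in experiment A, was at −1.23. In phf1 the medians were 1.1 with SynCom and −0.079 without bacteria at low Pi, where no libraries overlapped, and 0.413 and −0.151 at high Pi, where they did. Col-0 stood at 0.826 and −0.536 at low Pi and at 0.249 and −0.908 at high Pi, as a description of the libraries that chose the genes.

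Extensins, rod-like wall glycoproteins that peroxidases cross-link into a network, led the list. Of the 9 members on the root extensin list, 1 rose in phr1 phl1 at low Pi, 8 in phr1 phl1 at high Pi, 9 in phf1 at low Pi and 2 in phf1 at high Pi, with median log2 fold changes of 0.91, 1.68, 1.85 and 0.922. EXT6 had 7.73, 20.9 and 114 CPM (lowest, median and highest of 12 libraries) with SynCom in phr1 phl1 at high Pi, against 1.17, 5.64 and 8.89 CPM without bacteria. Only the lowest SynCom libraries reached down into the noBact range, and the log2 fold change was 2.32 ± 0.38 (SE, adjusted p = 1.22e-05 by edgeR). At low Pi in phr1 phl1, EXT6 had 1.12, 8.71 and 72 CPM with SynCom and 2.85, 6.78 and 13.9 CPM without bacteria. There the groups overlapped over their whole lower part, and the log2 fold change of 1.31 ± 0.43 did not pass (adjusted p = 0.062). In phf1 at low Pi the gene had 32.9, 91.4 and 168 CPM with SynCom and 5.04, 19.6 and 34.1 CPM without bacteria, a log2 fold change of 2.11 ± 0.34 (adjusted p = 1.33e-06).

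EXT12 was the root extensin that rose in all 4 comparisons. Its log2 fold change was 1.22 ± 0.36 in phr1 phl1 at low Pi, 1.95 ± 0.33 at high Pi, 1.85 ± 0.31 in phf1 at low Pi and 1.13 ± 0.31 at high Pi (adjusted p by edgeR 0.0298, 1.5e-05, 2.74e-06 and 0.0185). EXT10 had 15.8, 45.7 and 189 CPM with SynCom in phr1 phl1 at high Pi and 4.43, 11.6 and 15.5 CPM without bacteria. All 12 SynCom libraries lay above all 12 noBact libraries, with a log2 fold change of 2.13 ± 0.36 (adjusted p = 1.5e-05). At low Pi in the same genotype EXT10 reached 0.91 ± 0.38 and did not pass (adjusted p = 0.181). AT3G54580, a further proline-rich extensin, rose in phf1 at low Pi with 0.99 ± 0.33 (adjusted p = 0.0258 by edgeR). It had −0.03 ± 0.33 in phf1 at high Pi and 0.09 ± 0.34 and 0.82 ± 0.34 in phr1 phl1 at low and high Pi, which did not pass. HRGP1, its neighbour, had log2 fold changes of 0.42 and 1.30 in phr1 phl1 at low and high Pi and 1.55 and 0.32 in phf1, of which the 1.30 and the 1.55 passed (adjusted p = 0.0051 and 7.6e-05 by edgeR).

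PRP1 and PRP3 are proline-rich proteins of the root hair wall, and both rose in all 4 comparisons. PRP1 had 2.16, 7.83 and 31.3 CPM with SynCom in phr1 phl1 at high Pi, against 0, 0.713 and 5.01 CPM without bacteria, and its log2 fold change was 3.60 ± 0.50 (adjusted p = 2.38e-07 by edgeR). In phf1 at high Pi it had 2.43, 9 and 24.4 CPM with SynCom and 0.434, 1.4 and 3.15 CPM without bacteria, a log2 fold change of 2.77 ± 0.45 (adjusted p = 9.06e-06). The noBact values of PRP1 rest on few counts in most libraries, and its standard errors are larger than those of PRP3. PRP3 had 13.6, 29.2 and 132 CPM with SynCom and 7, 11.5 and 22.9 CPM without bacteria in phr1 phl1 at high Pi, a log2 fold change of 1.53 ± 0.29 (adjusted p = 0.000161). Its other log2 fold changes were 1.04 ± 0.32 in phr1 phl1 at low Pi, 1.94 ± 0.28 in phf1 at low Pi and 0.94 ± 0.28 in phf1 at high Pi (adjusted p by edgeR 0.0394, 5.52e-08 and 0.0328).

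**Figure D3:**
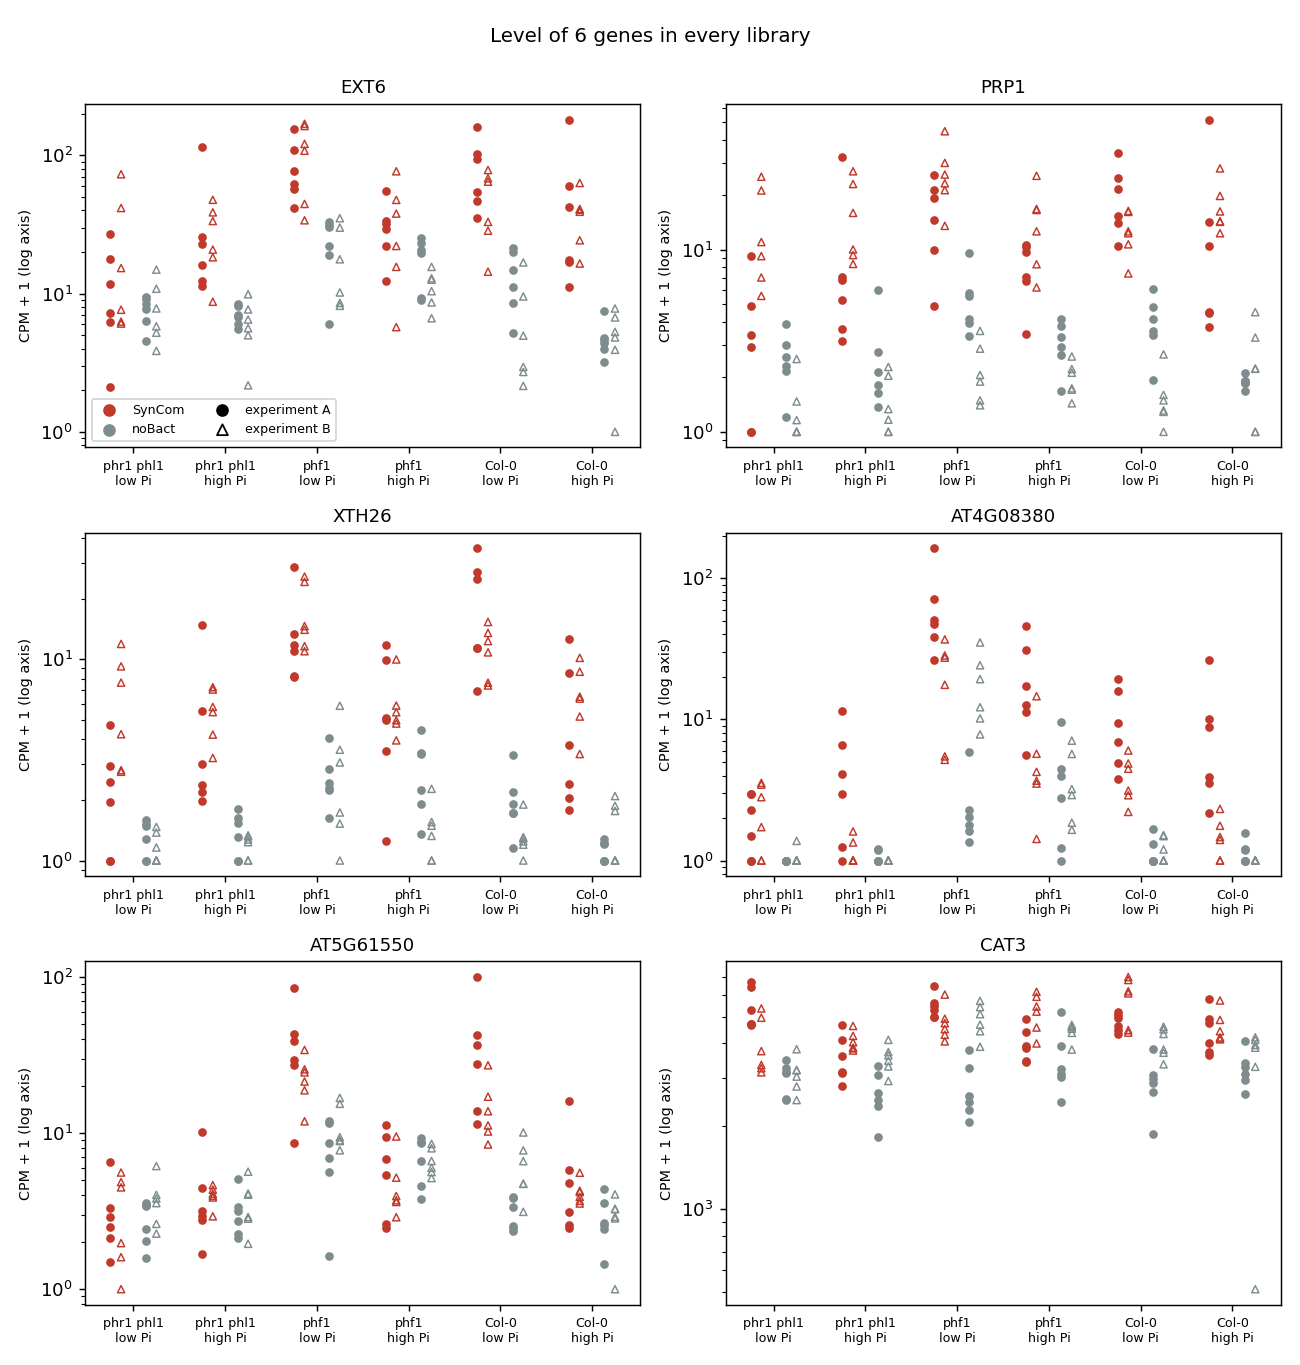
CPM + 1 (log axis) of 6 of the 111 genes in every library, by genotype and final Pi level, with SynCom in red left of noBact in grey; filled circles are experiment A and open triangles experiment B. XTH26 and PRP1 lie higher with SynCom in all 3 genotypes. AT5G61550 does so in phf1 at low Pi and in Col-0 at both Pi levels, where the rise is larger at low Pi. AT4G08380 does so in phf1 mostly through experiment A at low Pi.

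The XTHs cut and rejoin the xyloglucan that tethers cellulose. XTH26 had 0.973, 3.84 and 13.8 CPM with SynCom in phr1 phl1 at high Pi and 0, 0.293 and 0.797 CPM without bacteria, without overlap, and 7.18, 11.5 and 27.6 CPM with SynCom in phf1 at low Pi against 0, 1.36 and 4.87 CPM. Its log2 fold change was 3.67 ± 0.54 and 3.11 ± 0.39 in these comparisons (adjusted p = 1.17e-06 and 8.64e-10 by edgeR), and it was also called at 3.59 ± 0.68 in phr1 phl1 at low Pi and 2.11 ± 0.43 in phf1 at high Pi (adjusted p = 0.000146 and 0.000629). XTH13, which adjoins the member XTH12, rose in all 4 as well, most in phf1 at low Pi with 3.10 ± 0.42 (adjusted p = 9.41e-09). XTH14 rose in phr1 phl1 at high Pi with 1.27 ± 0.27 and in phf1 at low Pi with 1.26 ± 0.25, and had 0.49 ± 0.29 and 0.31 ± 0.26 in the other comparisons of phr1 phl1 and phf1 (adjusted p by edgeR 0.00103, 8.51e-05, 0.423 and 0.551).

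Other wall proteins moved with them. FLA6, an arabinogalactan protein with adhesion domains, had the largest called increase in phf1 at low Pi. It had 3.39, 15.6 and 33.5 CPM with SynCom there and 0, 1.53 and 4.01 CPM without bacteria, a log2 fold change of 3.20 ± 0.38 (adjusted p = 1.41e-10 by edgeR), and it was also called at 3.37 ± 0.58 and 3.53 ± 0.50 in phr1 phl1 at low and high Pi and at 2.49 ± 0.43 in phf1 at high Pi. The expansins EXPA7 and EXPA18, which loosen the wall as hairs bulge and lengthen, rose in phf1 at low Pi with 0.95 ± 0.24 and 1.46 ± 0.25 and in phr1 phl1 at high Pi with 0.96 ± 0.25 and 1.19 ± 0.28 (adjusted p by edgeR 0.00263, 4.28e-06, 0.0126 and 0.0035). In phr1 phl1 at low Pi they had 0.10 ± 0.28 and 0.82 ± 0.32, and in phf1 at high Pi 0.63 ± 0.25 and 0.72 ± 0.27, none of which passed. AT5G04960, counted as a pectin enzyme, and AT4G25790, the CAP protein, rose in all 4 comparisons. Their log2 fold changes were 1.11 to 2.02 and 1.36 to 2.41. ST4B, a sulfotransferase, had 21.6, 40.9 and 76.8 CPM with SynCom in phf1 at low Pi and 2.33, 6.18 and 8.6 CPM without bacteria, without overlap, and a log2 fold change of 2.82 ± 0.31 (adjusted p = 7.83e-12).

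Of all 23 genes on the root hair growth list, members or not, 4 rose in phr1 phl1 at low Pi, 13 at high Pi, 19 in phf1 at low Pi and 5 in phf1 at high Pi, and none fell. Their median log2 fold changes were 0.493, 0.962, 1.34 and 0.505. Among members of the list, RHS18 had 2.43, 5.8 and 28.4 CPM with SynCom in phr1 phl1 at high Pi and 0.542, 1.58 and 3.76 CPM without bacteria, and it rose in all 4 comparisons with log2 fold changes of 1.83 ± 0.42 and 2.19 ± 0.36 in phr1 phl1 and 2.50 ± 0.33 and 1.75 ± 0.34 in phf1. LRX1, a wall protein with leucine-rich repeats and an extensin domain that shapes the hair, rose in phr1 phl1 at high Pi (1.34 ± 0.30) and phf1 at low Pi (1.59 ± 0.28), with adjusted p of 0.00178 and 7.37e-06 by edgeR. It had 0.55 ± 0.32 and 0.40 ± 0.28 in phr1 phl1 at low Pi and phf1 at high Pi, which did not pass. The kinase PERK13 had 0.81 ± 0.25 in phr1 phl1 at high Pi and 0.92 ± 0.24 in phf1 at low Pi (adjusted p = 0.0455 and 0.00356), and MRH6 rose in phf1 at low Pi, with 1.57 ± 0.32 (adjusted p = 0.000137). RHS12 was also called in phf1 at low Pi alone, at 1.54 ± 0.27, while RHS13 and RHS19 rose there and in phr1 phl1 at high Pi, with log2 fold changes of 1.54 to 1.64. RHS13 was called in phf1 at high Pi too, at 0.85 ± 0.27 (adjusted p = 0.0487 by edgeR).

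Genes of the list that are not members moved as well in phf1 at low Pi. RHD2, the NADPH oxidase that makes the oxygen radicals of a growing hair tip, had a log2 fold change of 0.927 (adjusted p = 0.00234 by edgeR), and SHV2, MRH1 and RSH2 had 0.964, 0.847 and 1.34. CSLD3, which makes wall polysaccharide at the tip, had 0.205 and SCN1, which limits a root epidermal cell to 1 hair site, had −0.011, and neither passed. Of the 9 listed regulators of hair fate and growth, only 3 were above the CPM minimum, and none of these was a member. The others were too low to be chosen. Of the 6 regulators tested, RSL4 rose in phf1 at low Pi with 1.27 ± 0.34 (adjusted p = 0.00396), at 1.7, 3.28 and 6.09 CPM with SynCom and 0.262, 1.29 and 2.68 CPM without bacteria. RHD6 fell by 0.862 on the log2 scale in phf1 at high Pi (adjusted p = 0.0378), and no regulator was called in phr1 phl1. The experiments differed here. In each mutant 3 of the 6 had a smaller response in B than in A at low Pi, and 2 at high Pi. None had a larger one. Of all genes, 16.3% and 2.84% were smaller in B in phf1 and 8.12% and 3.77% in phr1 phl1 (low, high Pi). The lack of calls over both experiments thus does not show unchanged levels.

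Lists for other parts of the seedling were set beside these. None of the 8 Casparian strip genes tested, which mark the root endodermis, and none of the 20 photosynthesis genes was called in the 4 SynCom comparisons. The experiments differed, however. The response of all 8 Casparian strip genes was called smaller in B than in A in phf1 at low Pi and in phr1 phl1 at high Pi. The median differences were −2.43 and −2.04 log2 units, so the lack of calls over both experiments does not show unchanged levels. The summed level of the 9 listed Casparian strip genes was 51.9 to 165 CPM with SynCom and 29 to 221 CPM without bacteria in phf1 at low Pi, and 40.6 to 210 CPM with SynCom and 49.4 to 183 CPM without bacteria in phr1 phl1 at high Pi. The summed photosynthesis genes were at 50360 to 100460 CPM with SynCom and 49789 to 104610 CPM without bacteria in phf1 at low Pi. Of 11 suberin genes tested, 2 rose in phf1 at low Pi and 3 fell in phf1 at high Pi, against 9.01% and 1.88% of all genes. For 5 of them in phf1 at low Pi and 8 in phr1 phl1 at high Pi, the response was smaller in B than in A. So it was for 9 photosynthesis genes in phf1 at low Pi, while at high Pi it was larger in B for 3 in each mutant. Of all genes, 16.3% were smaller in B in phf1 at low Pi and 3.77% in phr1 phl1 at high Pi. The limit given for Casparian strip genes thus holds for these lists too. The part of the share of root or root hair RNA in the members' values was not tested.

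Of 6 members described as transporters, 3 rose in phr1 phl1 at low Pi, 3 at high Pi, 5 in phf1 at low Pi and 4 in phf1 at high Pi, with median log2 fold changes of 0.865, 0.743, 0.696 and 0.854. Of all 111 members 40, 68, 96 and 39 rose there, and counts of 6 do not set transporters apart from them. The class rests on words of the RefSeq description and leaves out CHX16, HA7 and the amino acid permeases AAP2 and AAP7. LHT1, an amino acid importer of root epidermis and leaf cells, had 99.8, 134 and 251 CPM with SynCom in phr1 phl1 at low Pi and 59.9, 74.3 and 117 CPM without bacteria. It rose in all 4 comparisons, with log2 fold changes of 0.93 ± 0.16 and 0.86 ± 0.15 in phr1 phl1 and 0.45 ± 0.15 and 0.65 ± 0.15 in phf1 (adjusted p by edgeR 1.57e-05, 6.06e-05, 0.0294 and 0.00429). The molybdate transporter MOT1, the zinc transporter ZIP5 and the cation exchanger CHX16 also rose in all 4, with log2 fold changes of 0.63 to 1.21, 0.97 to 1.48 and 0.77 to 1.32. These 3 genes were picked after their values were seen. IMS2, a methylthioalkylmalate synthase of glucosinolate synthesis, rose in phr1 phl1 at low and high Pi with 1.02 ± 0.26 and 0.83 ± 0.25 and in phf1 at low Pi with 1.37 ± 0.24, and had 0.41 ± 0.24 in phf1 at high Pi (adjusted p by edgeR 0.00796, 0.0354, 7.37e-06 and 0.362). All 19 glucosinolate genes rose in phf1 at low Pi, 0 in phf1 at high Pi, 7 in phr1 phl1 at low Pi and 1 at high Pi. Of all genes tested, 9.01%, 2.43%, 2.68% and 3.3% rose there, and the 1 of 19 is near its share. At low Pi the response was larger in experiment B than in A for 18 of them in phf1 and 16 in phr1 phl1, against 15.3% and 7.99% of all genes. The median differences were 2.17 and 1.44 log2 units.

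The 4 genes that follow lay on none of the lists. AT2G43620, a chitinase, had log2 fold changes of 2.23 ± 0.35 and 1.77 ± 0.33 in phr1 phl1 and 1.54 ± 0.35 and 1.55 ± 0.33 in phf1 (adjusted p by edgeR 3.12e-06, 9.72e-05, 0.000538 and 0.00112). AT4G12500, a lipid transfer protein, had 7.53, 57.4 and 121 CPM with SynCom in phr1 phl1 at low Pi and 0.468, 13.9 and 43.1 CPM without bacteria, and it was called in all 4 at 1.81 to 2.70. AT3G03670, a peroxidase, had 2.46, 10.4 and 23.2 CPM with SynCom in phr1 phl1 at low Pi against 0, 0.304 and 5.29 CPM without bacteria, and rose by 3.76 ± 0.65 (adjusted p = 2.87e-05), and by 3.15 ± 0.51 at high Pi (adjusted p = 7.29e-06). In phf1 it had 0.77 ± 0.41 and 1.10 ± 0.40 at low and high Pi, which did not pass. AT4G08380, an extensin-like protein, was nearly silent in phr1 phl1 without bacteria. At low Pi it had 68 counts in 8 of the 12 SynCom libraries and 1 count in the noBact libraries, a CPM ratio of 57.8 with an exact 95% interval of 10 to 2320, and at high Pi it had 91 counts in 7 SynCom libraries and 2 counts, a ratio of 54.5 (14.7 to 457). These intervals cover counting error only. By edgeR, AT4G08380 was called in phr1 phl1 at high Pi and was not called there at low Pi.

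The following members were called in none of the 4 comparisons: the disease resistance genes AT2G17050 and AT1G58410, the laccase LAC8, the oligopeptide transporter OPT6 and the amino acid permease AAP7. LAC8 had the lowest fold change in phr1 phl1 at low Pi, with 3.86, 11.6 and 19.2 CPM with SynCom and 9.87, 14.3 and 22.7 CPM without bacteria (log2 fold change −0.45 ± 0.20, adjusted p = 0.233 by edgeR). In phf1 at low Pi it had 0.47 ± 0.18 (adjusted p = 0.0656). PME3, a pectin methylesterase, and GAE6, which makes galacturonate for pectin, rose in phf1 at low Pi with 0.57 ± 0.16 and 0.50 ± 0.16 (adjusted p = 0.00608 and 0.018), and had fold changes within 0.21 of 0 on the log2 scale in the other 3 comparisons.

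**Figure D4:**
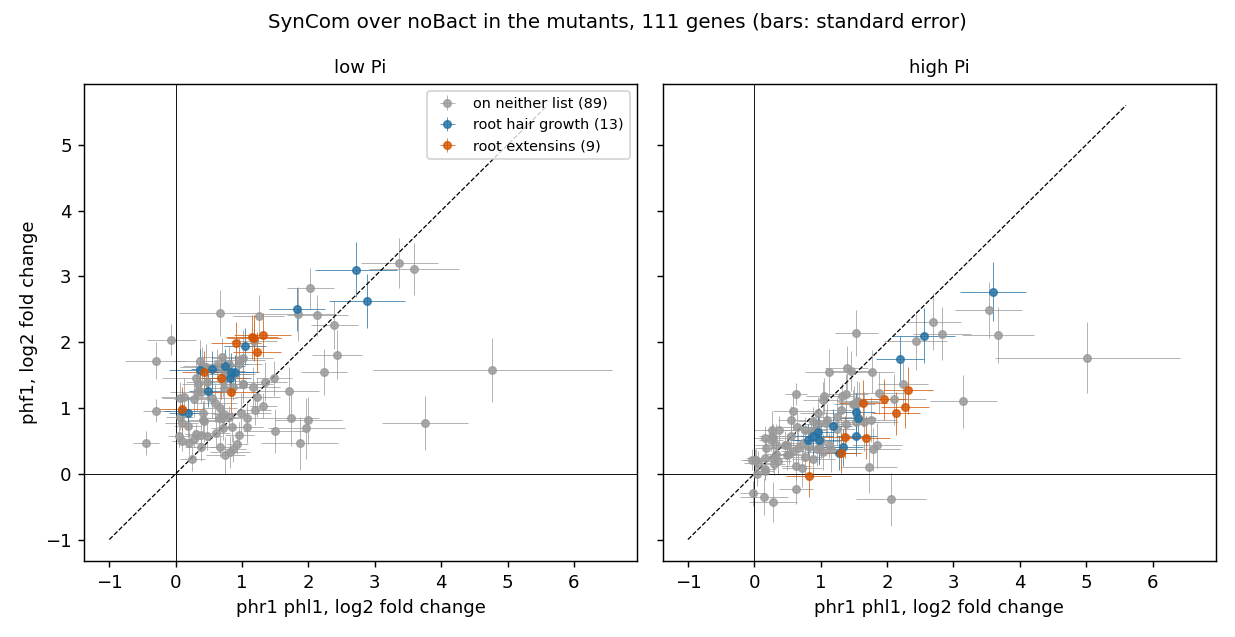
Log2 fold change of SynCom over noBact in phr1 phl1 (x axis) and in phf1 (y axis) at low and high Pi for the 111 genes, with standard errors; orange points are the 9 root extensins, blue points the 13 root hair growth genes, grey points the other 89, and the dashed line marks equal values. Most points lie above the line at low Pi and below it at high Pi.

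The size of the response was then compared between the mutants. At low Pi it was lower in phr1 phl1 than in phf1 by a median of 0.526 log2 units over the members. Of them, 5 passed as lower and 1 as higher, against 0.725% and 1.61% of all genes tested, and 36 had an unadjusted p under 0.05. At high Pi the median difference was 0.394, and edgeR called 0 members (0% of all genes) at an adjusted p under 0.05, with 18 members and 897 of all genes at an unadjusted p under 0.05. The plot of phf1 against phr1 phl1 fold changes shows this turn, with most root extensins and root hair growth genes on the phf1 side of the line at low Pi and on the phr1 phl1 side at high Pi. Whether the difference between the mutants itself differs between Pi levels was not tested gene by gene. Without the libraries numbered A1, A2, B1 or B2 in turn, 0 to 4 members were called at low Pi.

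The 6 genes with a called difference at low Pi were outside the extensins. AT4G25160 and AT5G61550, a pair of kinases with U-box domains, differed by −2.11 ± 0.44 and −2.02 ± 0.53 between phr1 phl1 and phf1 (adjusted p = 0.00276 and 0.0219 by edgeR). AT4G25160 had 0.352, 1.2 and 5.55 CPM with SynCom and 0.52, 1.83 and 3.75 CPM without bacteria in phr1 phl1 at low Pi, where the groups overlapped fully. In phf1 it had 5.63, 20.9 and 74.2 CPM with SynCom and 1.26, 5.65 and 9.03 CPM without bacteria, a log2 fold change of 2.04 ± 0.24 (adjusted p = 1.82e-10). XIB, a myosin that moves along actin, differed by −1.25 ± 0.27 (adjusted p = 0.0038), and AAP2, an amino acid permease of the vasculature, by −0.86 ± 0.24 (adjusted p = 0.0321). AAP2 had 180, 391 and 644 CPM with SynCom and 184, 306 and 419 CPM without bacteria in phr1 phl1, against 411, 705 and 1085 CPM with SynCom and 246, 280 and 389 CPM without bacteria in phf1, where the groups did not overlap. LAC8 differed by −0.92 ± 0.27 (adjusted p = 0.0486), and AT3G03670 by 2.99 ± 0.81 in favour of phr1 phl1 (adjusted p = 0.0272).

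The response of phf1 was larger at low than at high Pi. The median difference was 0.705 log2 units, and 14 members passed as larger at low Pi and 0 as smaller, against 4.9% and 4.93% of all genes tested. AT4G25160, AT5G61550 and AAP2 led with 2.39 ± 0.37, 2.15 ± 0.42 and 1.17 ± 0.24 (adjusted p = 2.39e-06, 0.000209 and 0.000501 by edgeR). Without the libraries numbered A2, B1 or B2 the count fell below the 14, to 4 to 6 members, and without A1 it was 18. In phr1 phl1 the median difference between low and high Pi was −0.19. There edgeR called 0 members at an adjusted p under 0.05, against 0.0725% and 0.0983% of all genes, and 7 members had an unadjusted p under 0.05.

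Levels at low and high Pi were compared within SynCom and within noBact libraries. With SynCom, 71 members were higher at low Pi in phf1 and 3 were lower, against 19.9% and 20.2% of all genes tested, and the median difference was 0.862 log2 units. Higher at low Pi were 20 of the 23 root hair growth genes and all 11 root extensins tested. AT4G25160, AT5G61550 and the inorganic pyrophosphatase PPa3 differed by 2.96 ± 0.26, 2.71 ± 0.30 and 2.74 ± 0.36 (adjusted p by edgeR 8.48e-18, 8.71e-13 and 8.42e-10). AT5G04730 and AT4G03460, both ankyrin repeat proteins, and AT4G11230 were lower at low Pi, by −1.40, −0.54 and −0.83 log2 units (adjusted p = 0.0033, 0.0145 and 0.0182). Without bacteria, 6 members were higher at low Pi in phf1 and 0 lower, against 3.05% and 1.65% of all genes, with a median of 0.207 and no gene of either root list among the calls. The 6 included CYP710A2, a sterol desaturase, with 0.92 ± 0.21, and AT4G12500 with 1.79 ± 0.42 (adjusted p = 0.00419 and 0.00533), and the count was 1 without libraries A1 and 1 without A2.

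In phr1 phl1 with SynCom, the members leaned the other way. The median difference between low and high Pi was −0.329 log2 units, and it was −0.633 in experiment A and −0.148 in experiment B. At low Pi 8 members were lower and 0 higher, against 4.5% and 5.32% of all genes tested, and 35 had an unadjusted p under 0.05 by edgeR. AT4G11230 had 0.28, 2.87 and 5.07 CPM at low Pi and 0.973, 7.02 and 16.3 CPM at high Pi, a log2 difference of −1.45 ± 0.33 (adjusted p = 0.00141 by edgeR). AT5G04730 and the proton pump HA7 differed by −1.49 ± 0.42 and −1.09 ± 0.32 (adjusted p = 0.0124 and 0.0192). HA7 had −1.85 in experiment A and −0.315 in experiment B. The 8 calls became 2 without libraries A1, 2 without A2 and 5 without B2, and 12 without the 6 libraries in doubt. Without bacteria the median was −0.0798, and edgeR called 0 members at an adjusted p under 0.05, against 0.383% and 0.0362% of all genes, with 11 members at an unadjusted p under 0.05.

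Pre-treatment was compared as +Phi against +P in SynCom libraries, with 8 libraries per arm. In phr1 phl1 the median difference over the members was 0.413 log2 units, but it was 0.995 in experiment A and −0.0992 in experiment B. One member passed, AT2G43620 with 1.90 ± 0.40 (adjusted p = 0.00284 by edgeR), against 0.58% of all genes higher and 1.48% lower, and 10 passed without the libraries numbered B2. In phf1 the median was −0.341, and edgeR called 0 members at an adjusted p under 0.05, against 0.0104% and 0.0311% of all genes, with 22 members at an unadjusted p under 0.05. The SynCom response within single pre-treatments was uneven, as a description of 2 against 2 libraries on log2(CPM + 1). In phr1 phl1 at low Pi the median response of the members was 0.729 in experiment A and −0.0718 in B after −P, −0.0682 and 0.946 after +P, and 0.979 and 0.924 after +Phi. In phf1 at high Pi it was −0.0185 and 0.199 after −P, 0.699 and 0.638 after +P, and 1.07 and 0.233 after +Phi. The experiment A values after −P in both mutants and after +Phi in phf1 each include a library in doubt.

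The experiments differed most in phf1 at low Pi. There the SynCom response was larger in B than in A for 9 members and smaller for 26, against 15.3% and 16.3% of all genes tested, with a median difference of −0.327 log2 units. AT4G08380 had a log2 fold change of −0.275 in B and 5.70 in A, a difference of −5.98 ± 0.70 (adjusted p = 2.14e-09 by edgeR). AT2G03260, an EXS family protein, and AT3G03670 differed by −3.93 ± 0.57 and −3.80 ± 0.62 (adjusted p = 1.19e-07 and 1.62e-06). PRP1 went the other way, with 4.40 in B and 1.61 in A, and likewise in phr1 phl1 at low Pi with 6.09 in B and 0.715 in A, although it had the same sign in both experiments in each comparison. The root extensins gave 1 call as smaller in B and 0 as larger, with a median difference of 0.125, and the root hair growth genes 2 in each direction. All 8 Casparian strip genes tested had a smaller response in B than in A in phf1 at low Pi, with a median difference of −2.43, and their part in the members' differences was not tested.

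In the other comparisons of B with A few members were called. In phf1 at high Pi they were 0 as larger in B and 4 as smaller, against 3.3% and 2.84% of all genes tested, and 8 were called without the 6 libraries in doubt. In phr1 phl1 they were 5 and 2 at low Pi, against 7.99% and 8.12%, and 1 and 3 at high Pi, against 4.28% and 3.77%, with 7 called at high Pi without the 6 libraries in doubt. AT4G12500 had a larger response in B in phr1 phl1 at both Pi levels, at 3.86 in B and 1.58 in A at low Pi, and 3.79 in B and 1.52 in A at high Pi. AT1G26250, an extensin-like protein, had a smaller one, at 0.985 in B and 3.01 in A at low Pi (adjusted p = 0.0204 by edgeR). LHT1 had 0.309 in B and 1.02 in A in phf1 at high Pi, a difference of −0.71 ± 0.22 (adjusted p = 0.0394).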

How the data were processed

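Gene counts of 144 whole-seedling RNA-seq libraries were used as the authors deposited them, not normalized, and every column was matched to its library by title. The submitters' processing notes name CASAVA 1.8, cutadapt 1.3, TopHat2 2.1.1, HTSeq 0.6.1p1 and the TAIR10 build. Per the series' design text, the 4 libraries of a group are biological replicates from 2 independent experiments. The libraries were not stranded, so a gene and an antisense neighbour cannot be told apart.

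Each SynCom comparison was fitted with edgeR 4.0.16 in R 4.3.3 as 36 group means plus a term for experiment over all 144 libraries, after filterByExpr with a minimum count of 10 left 19321 genes, with TMM factors of 0.82 to 1.19. Contrasts average over the 3 pre-treatments, and p-values were adjusted over all genes tested. A standard error is the fold change divided by the square root of the F statistic. Within-experiment values and the differences between B and A came from a model with separate group means for each experiment. The fit was tested on simulated counts for SynCom against noBact in phf1 at low Pi over 18286 genes, where it called 50.7% of 67 genes changed by 1.5-fold, 97% of 67 changed 2-fold, 100% of 66 changed 4-fold and 3 of 18086 unchanged genes.

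The members and the gene lists were chosen with earlier results of these data known, and the 6 libraries in doubt were marked after their values were seen. Genes were named by these rules: the 12 largest Col-0 effects, per mutant comparison the 3 largest called increases of the same sign in both experiments and the 3 lowest fold changes, up to 4 members per list and every member on the root lists, up to 3 called members per direction in the other comparisons, 3 genes on each side of the minimum, and PHR1, PHL1 and PHF1. Members in counts of 5 or fewer, list genes that are not members, and MOT1, ZIP5 and CHX16 were named after their values were seen. Names, descriptions and upstream sequences came from RefSeq TAIR10.1, which matched 26719 of 27206 loci and all 111 members. No 2 libraries of a group agreed within sampling noise (lowest chi-square per degree of freedom 1.33 over 216 pairs). DESeq2 1.42.0 and limma 3.58.1 served as alternatives.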

Additional observations from a re-analysis of the deposited data

Results flagged for a closer look

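The mean level of the 111 genes was checked for an outlying library in each of the 36 groups of 4. Chance alone marks about 1 group in 20, and 2 groups had one. In Col-0 after +Phi at low Pi without bacteria, library A1 stood at −0.0944, while the other 3 were between −0.965 and −0.834. PHR1 and PHL1 also went against the Col-0 label in that library, at 27.7 and 74.3 CPM, and it is one of the 6 in doubt. In phf1 after −P at low Pi with SynCom, library B1 stood at 1.52, with the others between 1.02 and 1.09.

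The SynCom response differed between the mutants at low Pi for 6 members, by a test of the difference itself. As phr1 phl1 minus phf1, the log2 difference was 2.99 for AT3G03670, −2.11 for AT4G25160, −2.02 for AT5G61550, −1.25 for XIB, −0.92 for LAC8 and −0.86 for AAP2. In each of these genes the difference had the same sign in both experiments, and for LAC8 it was −1.20 in experiment B and −0.979 in A. Between final Pi levels the difference in the phf1 response had its smallest p-values for AT4G25160, AT5G61550 and AAP2, at 2.39, 2.15 and 1.17 as low minus high Pi.

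Differences between the experiments were called in the same way, as response in B minus response in A. In phf1 at low Pi they were 2.79 for PRP1, 1.60 for XTH31, a xyloglucan enzyme, and 1.36 for CYP710A2, and −5.98 for AT4G08380, −3.93 for AT2G03260 and −3.80 for AT3G03670. CYP710A2 had 1.48 in B and 0.12 in A there, and XTH31 had 2.41 in B and 0.816 in A. In phf1 at high Pi they were −1.84 for AT1G26240, an extensin-like protein, −1.64 for AT5G37450, a receptor-like kinase, and −0.71 for LHT1. AT1G26240 changed sign, with −1.50 in B and 0.339 in A.

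In phr1 phl1 at low Pi the differences of B from A were 5.38 for PRP1, 2.28 for AT4G12500, 1.30 for CYP710A2, −1.40 for the peroxidase AT4G26010 and −2.03 for AT1G26250. At high Pi they were 2.27 for AT4G12500, −1.56 for AT1G11540, −2.18 for AT5G37450 and −2.33 for AT1G26250. PRP1 and CYP710A2 thus had larger low-Pi responses in B in both mutants, and AT5G37450 had smaller high-Pi responses in B in both.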

How the results depend on the processing

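Counts of members that rose with SynCom stayed within 1.5 times of 40 and 68 in phr1 phl1 and 96 and 39 in phf1 (low, high Pi) under DESeq2, its size factors, limma-voom, no low-count filter, no experiment term, mutant libraries alone and without the 6 libraries in doubt. The exception among single experiments was experiment A alone, with 23 in phf1 at high Pi. Without libraries A1, A2, B1 or B2 in turn the ranges were 21 to 32 and 48 to 55 in phr1 phl1 and 77 to 97 and 24 to 26 in phf1. For calls in either direction they were 0 to 4 for phr1 phl1 minus phf1 at low Pi, 4 to 18 for the phf1 response at low minus high Pi, 18 to 28 and 0 to 7 for B minus A in phf1 at low and high Pi, 0 to 6 and 0 to 6 in phr1 phl1, 1 to 5 for phf1 without bacteria and 2 to 11 for phr1 phl1 with SynCom at low minus high Pi, and 1 to 10 for +Phi minus +P in phr1 phl1. B minus A at high Pi, with 4 calls in each mutant, gave 7 in phf1 with no low-count filter, 8 in phf1 and 7 in phr1 phl1 without the 6 libraries. The number of members was 170 at a minimum of 0.3, 58 at 0.6 and 50 at 20 CPM. It was 103, 106, 141 and 130 without A1, A2, B1 or B2, of which 96, 97, 85 and 93 were among the 111, and 90, with 85 among the 111, without the 2 Col-0 libraries in doubt. Replicate numbers did not pair libraries (mean correlation of same-numbered deviations 0.014 in A and 0.0124 in B over 630 group pairs each), and a replicate block in place of experiment gave 40, 67, 96 and 39 calls.

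Of 2744 values of 49 named genes, 60 changed sign, 169 lost and 41 gained a call, and 2474 kept both; the cause was not tested. Those that changed sign follow as log2 fold changes, and of these AT4G08380 in phf1 at low Pi (1.58) was the only one called with both experiments. In experiment B alone, phr1 phl1 at low Pi gave −0.16 for HA7, −0.42 for AT3G54580, −0.14 for EXPA7 and −0.09 for PME3, and at high Pi −0.06 for AT4G25160, −0.28 for AT2G17050 and −0.09 for PME3. In phf1 B gave −0.83 for AT3G03670, −0.27 for AT4G08380, −0.73 for AT1G26240, −0.17 for AT4G11230, −0.00 for AT4G03460 and −0.12 for AT1G58410 at low Pi, and −0.13 for HA7, −0.09 for AAP2, −0.12 for AT2G17050, 0.12 for XIB and −0.11 for AT1G58410 at high Pi. In experiment A alone, phr1 phl1 at low Pi gave 0.48 for AT4G25160, 0.02 for AT5G61550, −1.86 for PPa3, −0.07 for CYP710A2 and −0.18 for GAE6, and at high Pi −0.07 for AAP2, −0.15 for XIB, 0.06 for LAC8 and 0.00 for GAE6, and phf1 at high Pi gave 0.32 for AT1G26240, 0.36 for AT3G54580 and −0.42 for PPa3. With limma-voom, phr1 phl1 at low Pi gave −0.00 for AT3G54580 and 0.05 for AT4G25160, and phf1 at high Pi −0.01 for HA7, −0.01 for AAP2 and 0.01 for XIB. Without the experiment term PME3 had −0.01 in phr1 phl1 at high Pi, and without the 6 libraries XIB had 0.06 in phf1 at high Pi. With a replicate left out, phr1 phl1 at low Pi ranged from −0.12 to 0.38 for AT3G54580, −0.34 to 0.38 for AT4G25160, −0.84 to 0.19 for AT5G61550, −0.23 to 1.51 for PPa3, −0.08 to 0.26 for EXPA7, −0.05 to 0.17 for PME3 and −0.15 to 0.18 for GAE6. At high Pi it ranged from −0.03 to 0.23 for AT4G25160, −0.01 to 0.87 for AT2G17050, −0.10 to 0.15 for XIB, −0.16 to 0.15 for PME3, −0.13 to 0.01 for LAC8 and −0.20 to 0.15 for GAE6. In phf1 it ranged from −0.02 to 0.95 for AT1G26240 at low Pi, and from −0.06 to 0.21 for HA7, −0.18 to 0.13 for AT3G54580 and −0.08 to 0.12 for XIB at high Pi. Depth limits PRP1, XTH26 and FLA6, whose noBact libraries often held few counts.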
